A study of Mus musculus with 10 samples.

Results

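The genes described here carry out or control the making of sterols and fatty acids. The list named 31 genes, each read through 1 probe set, the brightest over all 10 arrays among those with a single symbol. Of them 30 were found among the 18193 genes with such a probe set, and Acat2 is not analysed here. They fell into a sterol branch of 17 genes with a value, a set of 6 regulators with a sterol carrier, and a fatty acid branch of 7 genes. All 30 lay above the median of all probe sets on each of the 10 arrays, so none was dim by that measure.

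Affymetrix arrays measured the RNA of CGR8, a single embryonic stem (ES) cell line of SV129 mice, and the values are the authors' log2 RMA values. EBIO opens calcium-activated potassium channels. Untreated ES cells (n = 3) were compared with ES cells given 1 mM EBIO for 3 days (n = 3); arrays 1, 2 and 3 of each group came from passages 25, 26 and 27. The other comparison was of cells that spent 5 days as embryoid bodies and then 10 days without (n = 2) or with EBIO (n = 2); the labels give no dose for these cells, no vehicle for any control, and no selection of 1 cell type. The series' design text calls the samples independent experiments. The p-values come from limma, which draws each gene's spread between those towards a spread shared by all genes tested. The median SD of the members was 0.23 and 0.32 over control and treated ES arrays, and 0.05 and 0.06 over the differentiated ones. The labels call every sample small and tightly packed, including the differentiated ones.

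Cholesterol is built from acetyl-CoA through mevalonate, farnesyl diphosphate, squalene and lanosterol, and fatty acids are built from malonyl-CoA and then elongated and desaturated. SREBP transcription factors drive most of these genes: SCAP escorts the SREBP precursor out of the endoplasmic reticulum when membrane sterol is low, and INSIG proteins hold it back when sterol is plentiful. Because whole enzyme chains share this control, their transcripts often move together, and cells also adjust them to the lipid they take up, store or export.

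The sequence before the start site is shown for 6 members because these genes span the responses described below: Hmgcs1, Msmo1 and Sc5d (sterol branch), Insig1 (regulator), Fads2 and Elovl6 (fatty acid branch, whose responses differed). Each is the 250 bases before the start, 5′ to 3′ on the gene's strand, from RefSeq, build GRCm38.p6. Capitals mark letters found on either strand: TCACNCCAC (a sterol regulatory element), CACGTG (an E-box), CCAAT (bound by NF-Y) and GGGCGG (a GC box, bound by Sp1).
Hmgcs1, chr13:119690101-119690350, plus strand: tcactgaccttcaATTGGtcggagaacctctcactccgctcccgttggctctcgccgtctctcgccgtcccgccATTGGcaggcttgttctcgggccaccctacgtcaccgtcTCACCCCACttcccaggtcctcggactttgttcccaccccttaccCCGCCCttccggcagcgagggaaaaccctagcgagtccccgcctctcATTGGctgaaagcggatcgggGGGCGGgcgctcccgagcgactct
Msmo1, chr8:64733579-64733828, minus strand: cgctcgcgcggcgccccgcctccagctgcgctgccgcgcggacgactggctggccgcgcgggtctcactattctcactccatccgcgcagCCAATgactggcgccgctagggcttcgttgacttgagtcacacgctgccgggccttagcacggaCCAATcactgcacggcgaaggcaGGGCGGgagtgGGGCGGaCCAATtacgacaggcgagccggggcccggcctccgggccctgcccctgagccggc
Sc5d, chr9:42264301-42264550, minus strand: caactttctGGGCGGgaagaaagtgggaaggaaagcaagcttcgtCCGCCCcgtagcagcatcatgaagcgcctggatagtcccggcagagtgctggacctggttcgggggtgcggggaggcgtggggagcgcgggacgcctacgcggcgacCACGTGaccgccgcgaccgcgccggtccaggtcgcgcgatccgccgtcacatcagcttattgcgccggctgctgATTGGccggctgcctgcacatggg
Insig1, chr5:28071162-28071411, plus strand: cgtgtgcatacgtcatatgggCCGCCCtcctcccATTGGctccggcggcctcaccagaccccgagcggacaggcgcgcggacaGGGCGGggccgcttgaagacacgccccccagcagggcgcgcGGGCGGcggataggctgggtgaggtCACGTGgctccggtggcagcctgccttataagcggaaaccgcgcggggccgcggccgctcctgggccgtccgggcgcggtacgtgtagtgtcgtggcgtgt
Fads2, chr19:10101504-10101753, minus strand: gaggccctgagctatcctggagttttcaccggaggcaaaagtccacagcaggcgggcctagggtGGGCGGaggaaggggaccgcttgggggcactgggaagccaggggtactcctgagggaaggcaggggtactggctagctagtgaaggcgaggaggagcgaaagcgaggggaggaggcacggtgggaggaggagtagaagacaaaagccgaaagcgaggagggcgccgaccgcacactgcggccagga
Elovl6, chr3:129532136-129532385, plus strand: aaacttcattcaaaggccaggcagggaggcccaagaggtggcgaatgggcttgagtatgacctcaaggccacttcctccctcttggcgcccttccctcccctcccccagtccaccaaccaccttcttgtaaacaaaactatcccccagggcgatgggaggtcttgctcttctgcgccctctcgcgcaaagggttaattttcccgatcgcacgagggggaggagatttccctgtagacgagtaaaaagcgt

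Windows of this kind were at hand for 23 members. CCAAT was found, in at least 1 window of the gene, in 14 of 14 sterol branch genes, in 4 of 5 regulators and in 1 of 4 fatty acid genes (Fasn), against 40.4% of the 9759 genes tested in ES cells that had a window. By window, to allow for genes with several starts, it was in 14 of 17 sterol branch, 5 of 10 regulator and 1 of 4 fatty acid windows. The shares to set beside these were 35.2% of the 12435 windows of tested genes and 33.8% of all 32851 windows. GGGCGG was in 13 of the 14 sterol branch genes and 1 of the 4 fatty acid genes (Fads2), against 63.5% of tested genes; by window this was 14 of 17 and 1 of 4, against 57% of tested and 32.7% of all windows. TCACNCCAC occurred only in Hmgcs1 among the 23 members, 137 bases before the start, and in 1.29% of tested genes and 1.05% of all windows. CACGTG occurred in 5 of the 23 members (Hsd17b7, Dhcr7, Sc5d, Insig1 and Scap), against 10% of tested genes. By window it was in 3 of 17 sterol branch, 2 of 10 regulator and 0 of 4 fatty acid windows, against 8.32% of tested and 6.02% of all windows. In Sc5d it lay 98 bases before the start and in Insig1 101 bases before it. No matches of different motifs overlapped within a member's window. These are letter matches, not measured binding, and starts other than those listed were not searched.

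In ES cells EBIO raised much of the sterol branch. Of its 17 genes 10 were called higher and none lower by limma at an adjusted p under 0.05, with a median difference of 0.56 on the log2 scale. None was lower at an unadjusted p under 0.05 either, and of the 7 not called only Mvk had such a p (0.035). Across all 12096 genes tested in ES cells 23.5% were called higher, 21.2% lower and 44.8% either way, with a median of -0.04. Of all 30 members 20 were higher and 1 lower. The steps from squalene onward held 8 of the 10 rises, and the steps to farnesyl diphosphate 2 of 6 genes.

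Sc5d, the desaturase close to the end of the pathway, measured 6.13, 6.49 and 6.69 in the controls and 8.38, 8.66 and 8.43 with EBIO. Every treated array was above every control. The change was 2.05 ± 0.17 (SE), or 4.15-fold (n = 3 each, adjusted p = 2.6e-05). Sqle, squalene epoxidase, went from 8.41, 8.54 and 8.44 to 10.03, 10.48 and 10.27. Its groups were tight and far apart, with a change of 1.79 ± 0.14 (SE), 3.47-fold (n = 3 each, adjusted p = 2.3e-05).

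Msmo1, the oxidase that starts removal of the methyl groups of lanosterol's products, stood at 8.81, 9.04 and 8.86 in controls and 10.00, 10.92 and 10.32 with EBIO, 1.51 ± 0.22 (SE) higher (n = 3 each, adjusted p = 0.00061). Hmgcs1, which makes HMG-CoA for mevalonate, was at 10.50, 10.50 and 10.34 and then at 11.29, 11.88 and 11.40, 1.08 ± 0.17 (SE) higher (n = 3 each, adjusted p = 0.00096). Dhcr7, whose reductase completes cholesterol, was at 7.70, 7.91 and 7.44 and then at 8.14, 9.29 and 8.44, 0.94 ± 0.27 (SE) higher (n = 3 each, adjusted p = 0.022). In all of these genes the groups did not overlap. The treated array of passage 26 was the highest of the treated arrays in 13 of the 17 sterol branch genes and that of passage 25 the lowest in 14. Among the control arrays, too, that of passage 26 was the highest in 13 and that of passage 25 the lowest in 10.

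The other rises were smaller. Cyp51, the lanosterol demethylase, rose by 0.86, Hsd17b7, a ketosteroid reductase of the same stretch, by 0.79, Fdft1, squalene synthase, by 0.79, Tm7sf2, a sterol reductase, by 0.56 and Idi1, the isopentenyl diphosphate isomerase, by 0.52 (adjusted p from 0.0047 to 0.027). The 7 genes not called ran from -0.07 in Mvd, the mevalonate diphosphate decarboxylase, to 0.46 in Fdps, farnesyl diphosphate synthase. Between them lay the kinases Pmvk (-0.01) and Mvk (0.32), the sterol isomerase Ebp (0.03), Nsdhl (0.10), a dehydrogenase of demethylation, and Lss (0.44), lanosterol synthase. Passages pair the ES samples, and with passage as a block Mvk, Fdps and Lss were called as well (adjusted p = 0.046, 0.034 and 0.049). The further probe sets of Lss went the other way in ES cells, from 5.05 to 4.79 and, in a dimmer one, from 4.29 to 4.12. Within passages 25, 26 and 27 the treated array was above its own control in 14, 15 and 17 of the 17 genes, with medians of 0.48, 0.84 and 0.63. No count by passage was made over all genes tested, whose median difference in the ES fit was -0.04.

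The count of sterol branch rises rests partly on the choice of probe set: when all probe sets of a gene were averaged it was 6, and Idi1, Fdft1, Cyp51 and Hsd17b7 lost their calls (adjusted p = 0.10, 0.11, 0.063 and 0.15). Idi1 also lost its call without control array 1 or treated array 2 or 3, Tm7sf2 without control array 3 or treated array 1 or 2, and Dhcr7 without control array 1 (adjusted p from 0.052 to 0.11).

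**Figure D1:**
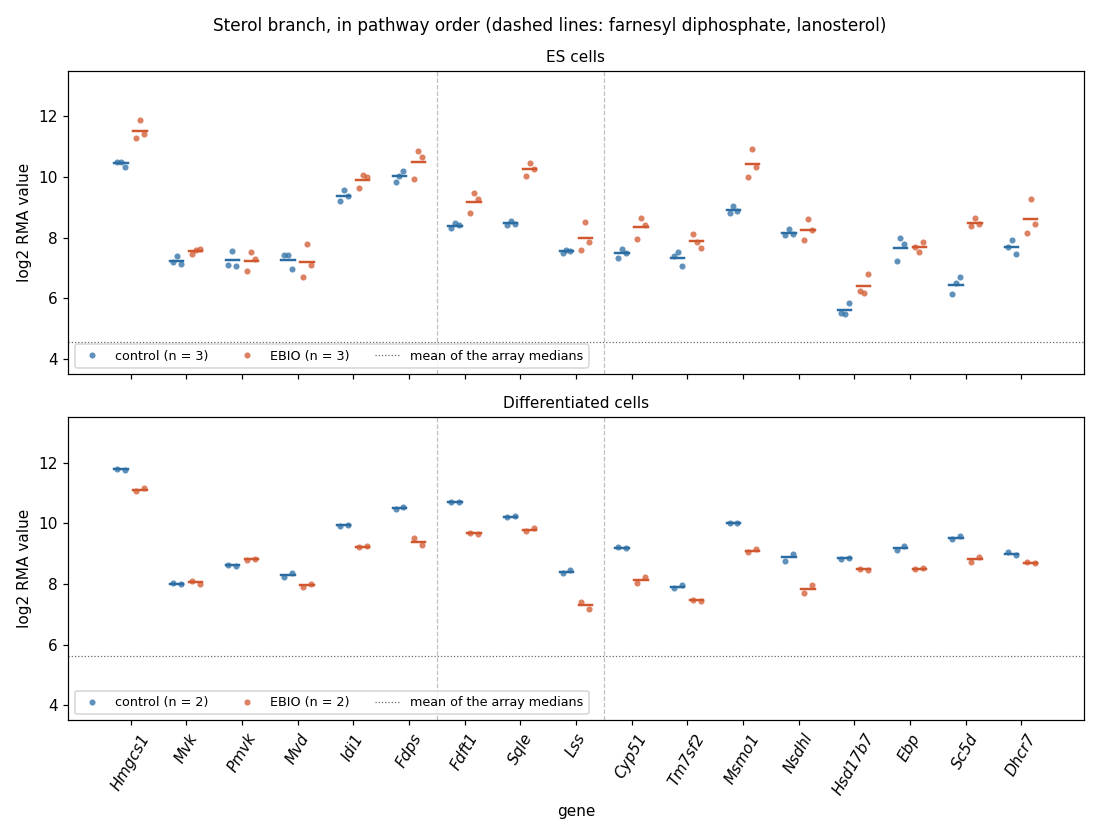
Log2 RMA value of each sterol branch gene on each array, in pathway order, for ES cells (top) and differentiated cells (bottom); blue points are control arrays, orange points EBIO arrays, short lines group means, and the dotted line the mean of the array medians. Orange lies above blue for Sqle, Msmo1 and Sc5d in the top panel and below blue for nearly all genes in the bottom one; levels of different genes and of the 2 panels are not comparable.

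The regulators also rose in ES cells, except that Insig1 and Srebf2 were not called. Of the 6, 4 were called higher and none lower, against 23.5% and 21.2% of all genes tested, and none had a difference below 0. Scap, the escort of the SREBP precursors, was at 7.55, 7.84 and 7.38 in controls and 9.21, 9.10 and 8.93 with EBIO. Its groups did not overlap, and it rose by 1.49 ± 0.15 (SE) (n = 3 each, adjusted p = 9e-05). Stard4, a soluble carrier of cholesterol, went from 7.07, 7.39 and 7.65 to 8.46, 8.65 and 8.60, 1.20 ± 0.16 (SE) higher (n = 3 each, adjusted p = 0.00042).

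Insig2, which retains SCAP in the endoplasmic reticulum, measured 6.18, 6.66 and 6.66 and then 7.33, 7.27 and 7.25, a rise of 0.78 ± 0.16 (SE) (n = 3 each, adjusted p = 0.0033). Srebf1, which encodes the SREBP forms tied most to fatty acid synthesis, measured 8.13, 8.20 and 7.75 and then 8.74, 8.91 and 8.51, a rise of 0.70 ± 0.17 (SE) (n = 3 each, adjusted p = 0.0084). In these genes too every treated array was above every control array.

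Insig1, itself a strong SREBP target in many cells, was at 6.51, 7.09 and 7.28 and then at 6.65, 7.82 and 7.79, so that treated array 1 lay among the controls. Its difference of 0.46 ± 0.33 (SE) was not called (n = 3 each, adjusted p = 0.29), and with passage as a block it was (adjusted p = 0.021), as it was without treated array 1 (0.84, adjusted p = 0.025). Srebf2, whose product drives sterol genes above all, was at 8.24, 7.93 and 7.33 and then at 8.06, 8.51 and 7.81. These values overlapped, and the difference of 0.29 ± 0.26 (SE) was not called (n = 3 each, adjusted p = 0.40).

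All 7 fatty acid genes changed in ES cells, 6 upward and 1 downward, with a median of 1.05, where 44.8% of all genes tested were called. Scd2, a stearoyl-CoA desaturase, was at 10.11, 10.49 and 10.44 in controls and 12.09, 12.57 and 12.37 with EBIO, 2.00 ± 0.17 (SE) higher or 3.99-fold (n = 3 each, adjusted p = 2.9e-05). Scd1, its close relative of liver and fat, was at 6.11, 7.02 and 6.63 and then at 7.64, 9.03 and 8.17, 1.70 ± 0.35 (SE) higher (n = 3 each, adjusted p = 0.0039). Neither gene's groups overlapped, though the treated values of Scd1 had the widest spread of any member (SD 0.70).

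Elovl6, which lengthens palmitate to stearate, went the other way. It measured 9.75, 9.60 and 9.27 in controls and 7.72, 8.00 and 7.75 with EBIO, and fell by 1.72 ± 0.16 (SE), 3.28-fold (n = 3 each, adjusted p = 5.1e-05). A further bright probe set of the gene gave -1.79. The polyunsaturated fatty acid desaturase genes Fads2 and Fads1 rose by 1.11 and 1.05, Fasn, fatty acid synthase, by 0.94, and Acaca, the carboxylase that makes malonyl-CoA, by 0.70 (adjusted p from 0.0014 to 0.009). These 7 calls held without each ES array in turn.

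Cell state markers moved with treatment in the ES samples. The 5 pluripotency markers (Pou5f1, Nanog, Zfp42, Esrrb and Tdgf1) averaged 11.1 to 11.3 over the control arrays and 6.75 to 7.38 over the treated ones, and all 5 were called lower. The 4 smooth muscle markers averaged 5.22 to 6.12 and then 8.36 to 8.57, with Acta2, Tagln and Cnn1 called higher. Myh11, the other of them, was under the median on every ES array (means 3.88 and then 3.61) and was not tested. The 3' minus 5' difference of the Actb control probe sets, a sign of RNA integrity, was 0.42 ± 0.09 and 0.14 ± 0.06 (SD, n = 3 each), and that of Gapdh -0.01 and 0.02. The part of these shifts in the lipid genes' rises was not tested.

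In differentiated cells nearly the whole sterol branch was lower with EBIO. Of its 17 genes 15 were called lower and 1 higher, with a median difference of -0.67, and changes of -0.29 to -1.11 among those that fell. Across the 12330 genes tested there, 32.6% were called lower, 33.3% higher and 66% either way, with a median of 0.02. Of all 30 members 22 were lower and 2 higher. All 3 genes from farnesyl diphosphate to lanosterol and all 8 after lanosterol fell, as did 4 of the 6 before. In bulk RNA, fewer cells of a kind and less RNA per cell cannot be told apart.

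Fdps was at 10.47 and 10.54 in controls and 9.50 and 9.29 with EBIO, and it fell by 1.11 ± 0.09 (SE), 2.15-fold (n = 2 each, adjusted p = 0.0002). Lss was at 8.35 and 8.45 and then at 7.42 and 7.19, and fell by 1.10 ± 0.10 (SE) (n = 2 each, adjusted p = 0.00025). Cyp51 was at 9.21 and 9.18 and then at 8.04 and 8.23, and fell by 1.06 ± 0.09 (SE) (n = 2 each, adjusted p = 0.00016). In these genes each control array was above each treated array by more than the replicates differed.

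Nsdhl went from 8.76 and 9.00 to 7.69 and 7.96, a fall of 1.05 ± 0.13 (SE) (n = 2 each, adjusted p = 0.00076), with the widest replicate spread of any member at this stage. Fdft1 went from 10.69 and 10.72 to 9.68 and 9.66, a fall of 1.03 ± 0.07 (SE) (n = 2 each, adjusted p = 7.1e-05). Its groups were far apart against the spread of their replicates. The 3 sterol branch genes with the largest rises in ES cells all fell here, Msmo1 by 0.91, Sc5d by 0.71 and Sqle by 0.43.

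Idi1 fell by 0.70, Hmgcs1 by 0.67, Ebp by 0.67, Tm7sf2 by 0.45, Hsd17b7 by 0.37, Mvd by 0.34 and Dhcr7 by 0.29 (adjusted p from 0.00032 to 0.015). Pmvk, at 8.64 and 8.59 and then 8.80 and 8.84, rose by 0.20 (adjusted p = 0.045), the only sterol branch gene called higher. That call was lost without any 1 of the 4 arrays (adjusted p from 0.078 to 0.18). Mvk measured 8.02 and 7.99 and then 8.10 and 8.01, a difference of 0.05 that was not called (adjusted p = 0.53). Dhcr7 lost its call without control array 1, treated array 1 or treated array 2, and Mvd without treated array 1 (adjusted p from 0.051 to 0.069). A fit that pooled the spread of all 4 groups left Mvd, Tm7sf2, Hsd17b7 and Dhcr7 without a call (adjusted p = 0.38, 0.069, 0.17 and 0.49), and with the mean of its 3 probe sets Sc5d was at -0.05 (adjusted p = 0.61).

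Of the 6 regulators 3 fell and none was called higher, though Scap had an unadjusted p of 0.044. The share that fell was 50%, against 32.6% of all genes tested, of which 66% were called either way. Stard4 was at 9.87 and 9.80 in controls and 8.12 and 8.00 with EBIO, and it fell by 1.77 ± 0.08 (SE), 3.42-fold (n = 2 each, adjusted p = 1.7e-05). Insig1 was at 9.10 and 8.94 and then at 7.88 and 7.84, a fall of 1.16 ± 0.08 (SE) (n = 2 each, adjusted p = 9.7e-05). Srebf1 was at 9.96 and 9.82 and then at 9.28 and 9.21, a fall of 0.64 ± 0.08 (SE) (n = 2 each, adjusted p = 0.00094). The groups of these 3 genes were well apart.

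The remaining regulators were not called. Insig2 was at 9.47 and 9.53 and then at 9.61 and 9.73 (difference 0.17, adjusted p = 0.097), and Scap at 9.99 and 9.94 and then at 10.17 and 10.12 (difference 0.18, adjusted p = 0.064). Both genes' treated arrays were slightly above their controls. Srebf2 was at 8.32 and 8.36 and then at 8.33 and 8.11 (difference -0.12, adjusted p = 0.29), but its other probe set fell from 9.07 to 8.06, and the mean of both was called lower (-0.57, adjusted p = 0.00097). The probe sets of Srebf2 thus disagreed on the size of its change at this stage.

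The fatty acid branch split in differentiated cells: 4 genes fell, 1 rose and 2 were not called, with a median of -1.16. These were 57.1% lower and 14.3% higher, against 32.6% and 33.3% of all genes tested, of which 66% were called either way. Scd1 was at 8.96 and 8.82 in controls and 6.49 and 6.58 with EBIO, the largest fall of any member, 2.36 ± 0.08 (SE) or 5.13-fold (n = 2 each, adjusted p = 8.4e-06). Fads2 was at 9.98 and 9.90 and then at 7.80 and 7.96, a fall of 2.06 ± 0.09 (SE) or 4.17-fold (n = 2 each, adjusted p = 1.4e-05). Fads1 was at 10.51 and 10.35 and then at 9.03 and 8.87, a fall of 1.48 ± 0.09 (SE) (n = 2 each, adjusted p = 6.6e-05). These falls of desaturase genes were large against the spread of their replicates.

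Elovl6 fell here too, by 1.16 (adjusted p = 4.9e-05). Fasn was at 9.34 and 9.28 and then at 9.86 and 9.78, and rose by 0.51 ± 0.07 (SE) (n = 2 each, adjusted p = 0.0015, or 0.12 when the spread of all 4 groups was pooled). Scd2, which had risen 3.99-fold in ES cells, was at 12.89 and 12.74 and then at 12.83 and 12.87 (difference 0.04 ± 0.08, SE, adjusted p = 0.69), and Acaca at 8.90 and 8.67 and then at 8.89 and 8.83 (difference 0.07, adjusted p = 0.54). The values of both genes overlapped between the groups. A further bright probe set of Scd2 fell from 9.71 to 9.18, and another was at 6.20 and then at 6.28. The mean of its 3 probe sets was not called. Of the 5 genes that desaturate or elongate, 4 thus fell, and neither gene of palmitate synthesis itself, Acaca and Fasn, was called lower.

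**Figure D2:**
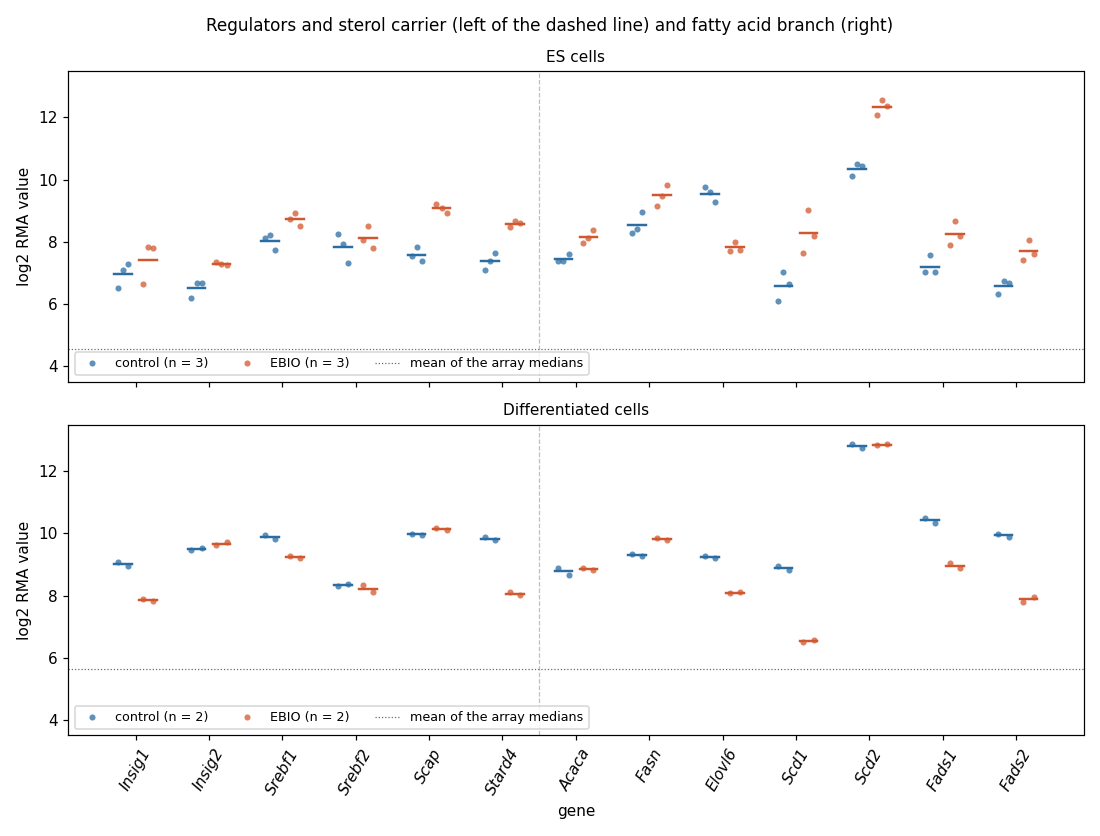
Log2 RMA values of the 6 regulators and carrier (left of the dashed line) and the 7 fatty acid genes (right) on each array, for ES cells (top) and differentiated cells (bottom); blue is control, orange EBIO, short lines are group means and the dotted line is the mean of the array medians. Elovl6 is lower with EBIO in both panels, Fasn is higher in both, and Scd1, Fads1 and Fads2 are higher in the top panel and lower in the bottom one.

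Cell type markers changed at the same time in the differentiated samples. The 5 cardiomyocyte markers averaged 8.10 to 8.19 in controls and 12.7 with EBIO. Smooth muscle markers averaged 9.07 to 9.10 and then 9.99 to 10.04, and neural markers 5.00 to 5.05 and then 6.13 to 6.16, with 3 of 3 tested called higher in each list. The 5 macrophage markers went from 11.2 to 11.4 down to 4.70 to 4.71, with all 5 under the array median on both treated arrays, and Fabp4, which fat cells, macrophages and endothelial cells express, from 10.12 to 3.94. The other adipocyte markers with a value, Adipoq and Cidec, were under the median in every group. Fibroblast markers averaged 13.0 and then 7.69 to 7.79, hepatocyte and endoderm markers 8.62 to 8.94 and then 5.20 to 5.25, and endothelial markers 7.96 to 7.99 and then 4.97 to 5.02. The falls of the 5 fibroblast markers ran from 1.55 in Postn to 8.30 in Lum, and Col3a1 and Postn stayed at 10.98 and 10.26 with EBIO. The 3' minus 5' difference of Actb was 0.43 and 0.46. How far the change in cell types contributed to the falls of lipid genes was not tested.

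The EBIO effects at the 2 stages were then set against each other in a single limma fit over the 4 groups. Of the 30 members 23 had a lower effect in differentiated than in ES cells and none a higher one by an adjusted p under 0.05, while Elovl6 was higher at an unadjusted p of 0.024. The shares among all 13706 genes tested were 25% lower, 20.5% higher and 45.5% either way. By branch these were 13 of 17 sterol genes, 5 of 6 regulators and 5 of 7 fatty acid genes. Duration, cell state and perhaps dose differ between the stages and cannot be told apart, and the 2 sets of arrays were normalized separately, so that only differences within a stage entered.

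In 15 members the effect itself changed sign, with a call in each stage: 10 sterol branch genes, Srebf1, Stard4, Scd1, Fads1 and Fads2. All 10 sterol genes that rose in ES cells were among those that fell in differentiated cells. These calls rest on the probe set that stands for each gene. With averaged probe sets Idi1, Fdft1, Cyp51 and Hsd17b7 lost their calls in ES cells, and Sc5d lost its call in differentiated cells. The largest gap was that of Scd1, whose effect was 4.06 ± 0.49 (SE) lower in differentiated cells on the log2 scale (n = 3 and 2 per group, adjusted p = 5.3e-05), followed by Fads2 (-3.17), Stard4 (-2.98), Sc5d (-2.77), Fads1 (-2.53) and Msmo1 (-2.42). Insig2, Scap, Acaca and Scd2 rose in ES cells and were not called in differentiated cells, with gaps of -0.61, -1.31, -0.63 and -1.96.

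Elovl6 and Fasn moved alike at both stages, down and up, and the tests of their gaps did not pass (0.56, adjusted p = 0.052, and -0.42, adjusted p = 0.30). With the replicate number as a block both did (adjusted p = 0.032 and 0.042), as did Ebp (-0.69, adjusted p = 0.063 without and 0.043 with the block). That block also pairs differentiated arrays, which share only a number and whose deviations correlated at -0.09 within these pairs. Elovl6 also passed without ES control array 3 or treated array 2 (adjusted p = 0.0064 and 0.032), and Ebp without ES control array 2 or 3 (adjusted p = 0.02 and 0.048). Mvk (-0.27), Pmvk (0.21) and Mvd (-0.27) were not called, nor was Srebf2 (-0.41, adjusted p = 0.38) unless its probe sets were averaged (-0.82, adjusted p = 0.02). With averaged probe sets Lss and Acaca lost their calls (-0.58 and -0.22, adjusted p = 0.074 and 0.25). Quantile normalization of all 10 arrays together also ended the call of Acaca (-0.48, adjusted p = 0.083) and gave Ebp a call (-0.66, adjusted p = 0.043). Leaving out single arrays ended the call of Dhcr7 (any of the 4 differentiated arrays), Insig1 (differentiated control 1), Insig2 (any differentiated array, or ES treated array 1 or 2) and Acaca (ES control 2, differentiated control 1 or either differentiated treated array), with adjusted p from 0.053 to 0.13.

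**Figure D3:**
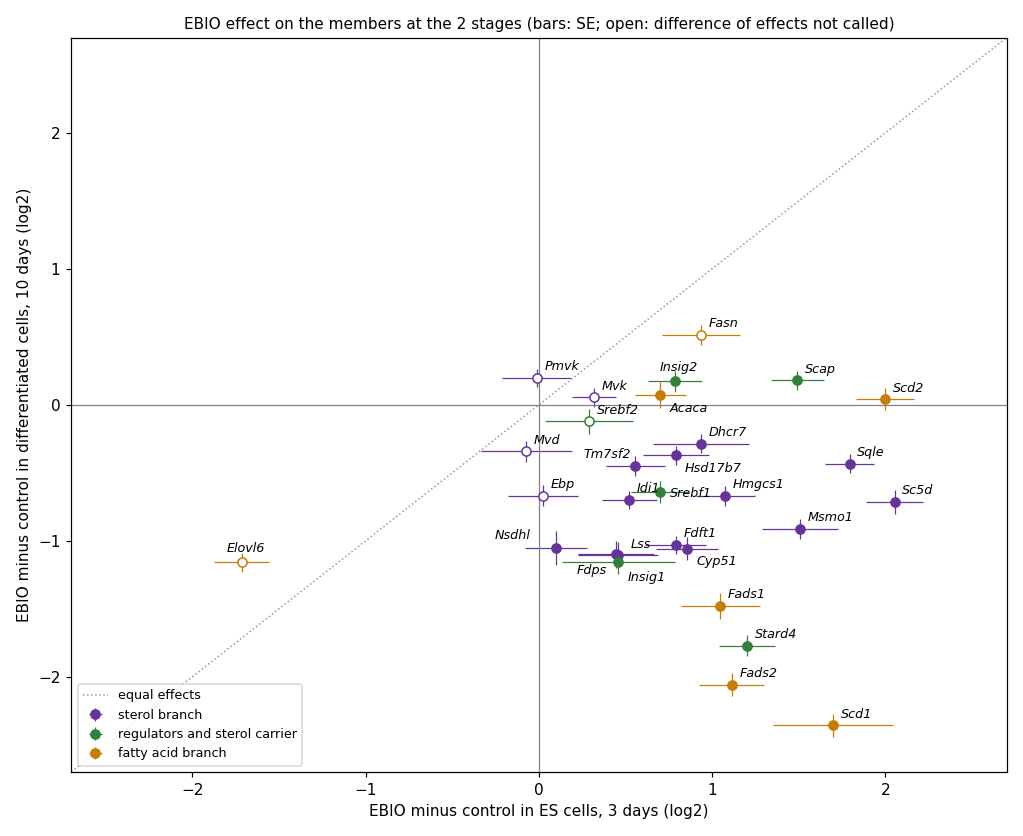
EBIO minus control on the log2 scale for each member, in ES cells (horizontal axis) and in differentiated cells (vertical axis), with bars for the SE; colours give the branch, open points are members whose difference between the stages was not called, and the dotted diagonal marks equal effects. Most points lie to the lower right, above 0 in ES cells and under 0 in differentiated cells; Fasn is up and Elovl6 down at both stages.

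Of the 30 members 21 had more than 1 probe set. Among the called genes, further probe sets above the mean array median in either group had the same sign in 21 of 23 cases in ES cells and 17 of 21 in differentiated cells. The exceptions were the same pair of Fdft1 at each stage, no brighter than 5.81 in any group, and a pair of Sc5d in differentiated cells (0.06 and 0.51), the first of them bright (8.37 and 8.43). Those of Fdft1 and Hsd17b7 that stand for the gene carry Affymetrix's _x suffix, and those of Mvd and Lss the _s suffix, used where probes can match more than a single transcript.

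Other genes of lipid metabolism, from lists chosen with earlier results of these data known, are given next. Their counts stand against the shares of all genes tested, 23.5% higher and 21.2% lower in ES cells and 33.3% and 32.6% in differentiated cells. Of 10 further genes of sterol synthesis, uptake and SREBP processing with a value, 3 rose and 1 fell in ES cells (median 0.08), while 3 rose and 7 fell in differentiated cells (median -0.65). The shares that rose, 30% at each stage, were near those of all genes. Npc1, which moves cholesterol out of lysosomes, rose at both stages, by 1.58 and 0.92. Aacs, which activates acetoacetate for lipid synthesis, rose by 1.24 in ES cells and fell by 0.52 in differentiated ones. Of the proteases that cleave SREBP precursors, Mbtps2 fell by 1.29 and 0.54, and Mbtps1, named after its values were seen, rose by 0.57 and 0.40. Lpin1, a phosphatidate phosphatase gene, rose by 0.45 in differentiated cells. Tmem97, a sterol-responsive membrane protein gene, fell by 1.48 in differentiated cells and Acat1, the mitochondrial thiolase, by 1.30.

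Genes of sterol export and of the oxysterol receptor LXR held the largest falls of the lipid genes listed. In ES cells 6 were tested, with 3 rises and 3 falls, where 44.8% of all genes were called; in differentiated cells 9 were tested, with 1 rise and 6 falls, where 66% of all genes were called. Apoe, the apolipoprotein that carries exported cholesterol, measured 12.09 ± 0.26 and 7.81 ± 0.27 in ES cells (SD, n = 3 each) and 12.25 ± 0.15 and 8.07 ± 0.37 in differentiated cells (SD, n = 2 each), falls of 4.28 and 4.19. Abca1, the cholesterol exporter, fell by 3.22 and 2.53. The gene of the ubiquitin ligase that degrades lipoprotein receptors, Mylip, rose by 2.32 in ES cells and fell by 0.89 in differentiated cells. Osbpl6, an oxysterol-binding protein gene, was called higher at both stages, at 4.18 and 5.16 in ES cells and 4.80 and 7.37 in differentiated cells; its control levels lay under the array median on every array and give only a bound. Cyp7b1, an oxysterol hydroxylase gene, fell in differentiated cells from 7.90 to 3.84, a level under the array median that gives only a bound. Apoe and Abca1 thus fell at both stages, including the one at which the sterol branch rose.

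Genes that use isoprenoids, for dolichol, ubiquinone and prenyl groups, had 5 rises and 2 falls among 11 in ES cells and 7 and 1 in differentiated cells. The share that fell in ES cells, 18.2%, was near that of all genes, and the shares that rose were 45.5% and 63.6%. Dolk, dolichol kinase, rose by 1.13 and Dhdds, a subunit of the enzyme that makes dolichol's chain, by 0.87 in ES cells, while Fntb, a farnesyltransferase subunit, fell by 1.03 and Rabggta by 0.58. In differentiated cells Rabggtb rose by 0.80, Icmt, which methylates prenylated proteins, by 0.75, and Fntb fell by 0.57. The median was 0.69 in ES cells and 0.36 in differentiated cells, above 0 at both stages.

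Further fatty acid genes had 12 rises and 3 falls among 23 tested in ES cells, and 9 rises and 7 falls among 24 in differentiated cells (medians 0.47 and 0.06). In differentiated cells these were 37.5% and 29.2%, close to the shares of all genes. Elovl1, an elongase of very long chains, rose by 2.66 and then fell by 1.30, and Acsl3, an acyl-CoA synthetase of lipid droplets, rose at both stages (2.38 and 0.66). Acacb, the carboxylase that restrains fatty acid oxidation, fell by 1.47 in ES cells and rose by 1.78 in differentiated ones. Acsl5 fell by 1.08 and 2.74. Acss2, which makes cytosolic acetyl-CoA from acetate, rose by 0.67 in ES cells and by 2.21 in differentiated cells, and Agpat2, an enzyme of triglyceride synthesis, fell by 1.35 there. Elovl1 and Acacb thus changed in opposite directions at the 2 stages, and Acsl3, Acsl5 and Acss2 in the same direction.

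**Figure D4:**
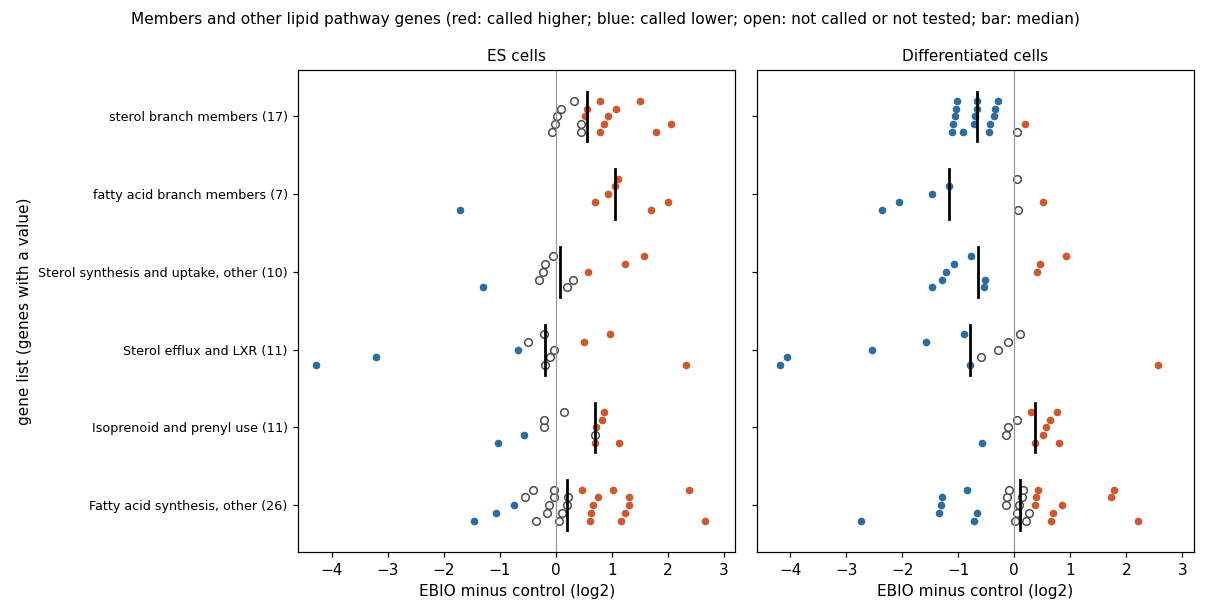
EBIO minus control on the log2 scale (horizontal axis) for the 2 branches of members and 4 lists of other lipid genes (each line, with its number of genes with a value), in ES cells (left) and differentiated cells (right); red points were called higher, blue lower, open points were not called or not tested, and bars are medians over genes with a value. The sterol branch median is 0.56 on the left and -0.67 on the right, and Apoe and Abca1 are the points farthest left among the export genes of ES cells.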

How the data were processed

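Total RNA of 10 samples was hybridised to 1 array each. Per the submitters' processing notes the authors used RMA, and the deposited values are on the log2 scale; probe set definitions and versions are not given in the sources used here. RMA removes background, gives all arrays of a set the same distribution and summarises the probes, which compresses low values. Judged from the values, the 6 ES and the 4 differentiated arrays were normalized apart (mean quantile differences of at most 0.0931 within and at least 0.910 between the sets), so no level was compared across them.

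Of 45101 probe sets, 64 Affymetrix controls were left out and 34945 had 1 symbol, updated through a RefSeq table where it matched (34741). A gene was tested if it lay above the array median on as many arrays as the smaller group held, or more. limma 3.58.1 in R 4.3.3 (Benjamini-Hochberg over all genes tested, threshold 0.05) was checked on simulated data. Each stage was fitted alone, and the difference between stages over all 10 arrays. Their number limits the precision. ES arrays with the same number share a passage, and their deviations correlated at 0.35, 0.23 and 0.62, so passage pairs them; the planned fit had no block.

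Members and lists were chosen with earlier results of these data known. Given array by array are the 5 called sterol genes and 3 fatty acid genes with the largest change in each stage, and all regulators; of each other list, the 2 largest called rises and falls are named. Some listed genes are not analysed here.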

Additional observations from a re-analysis of the deposited data

Results flagged for a closer look

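For 23 members the EBIO effect differed between ES cells (3 arrays a group) and differentiated cells (2 arrays a group) by the test of that difference, limma over the 4 groups at an adjusted p under 0.05. All values below are the effect in differentiated cells minus that in ES cells, on the log2 scale. In the sterol branch these were Sc5d (-2.77), Msmo1 (-2.42), Sqle (-2.23), Cyp51 (-1.91), Fdft1 (-1.82), Hmgcs1 (-1.75), Fdps (-1.56), Lss (-1.54), Dhcr7 (-1.22), Idi1 (-1.22), Hsd17b7 (-1.16), Nsdhl (-1.15), Tm7sf2 (-1.01). Among the regulators and the carrier they were Stard4 (-2.98), Insig1 (-1.62), Srebf1 (-1.34), Scap (-1.31), Insig2 (-0.61). In the fatty acid branch they were Scd1 (-4.06), Fads2 (-3.17), Fads1 (-2.53), Scd2 (-1.96), Acaca (-0.63). For 15 of the 23 the effect was called in each stage, upward in ES cells and downward in differentiated cells. With averaged probe sets Idi1, Fdft1, Cyp51 and Hsd17b7 lost the call in ES cells, and Sc5d that in differentiated cells. The Dhcr7, Insig1, Insig2 and Acaca values lost their calls without 1 or more single arrays, and those of Lss and Acaca with averaged probe sets.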

How the results depend on the processing

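No called member changed sign under any alternative run. In ES cells the mean of probe sets left 6 sterol branch rises in place of 10. With the replicate number as a block 13 were called in ES cells and 25 members in all; without each array in turn the sterol count ran from 8 to 11, all members from 19 to 23, and the fatty acid counts stayed at 6 higher and 1 lower. Without both passage-27 arrays, chosen after seeing the data, 9 sterol genes were higher. In differentiated cells the single sterol rise (Pmvk) became 0 with no filter, with the fit over 4 groups, with the replicate block and without each array (0 to 0), where an arm left with 1 array is assumed to vary like the other. The fit over 4 groups also left 0 fatty acid rises and 11 sterol falls in place of 15; without each array the falls ran from 13 to 15. Differentiated samples share only a number, and the block called 23 members there. Scap was called higher with the 75th percentile filter or a variance trend (adjusted p = 0.038 and 0.034). For the difference between stages, the 75th percentile filter, the mean of probe sets and the replicate block each called 1 fatty acid gene higher (Elovl6) in place of 0, and single arrays left out gave 0 to 1; members called ran from 19 to 25, the block called 26, and quantile normalization of all arrays called 23, as before. Without differentiated control 1 the regulators with a lower effect were 3 in place of 5. Calls over all genes moved as well. In ES cells they numbered 5413 in the main fit, 6474 with the block and 5175 with the mean of probe sets. Without each ES array they ran from 4296 to 5622. In differentiated cells they were 8132 in the main fit, 7493 with the block and 5575 with the fit over 4 groups. For the difference between stages they were 6236, 7153 with the block and 6254 with quantile normalization. The cause of these shifts was not tested. All 30 members passed the filter at the array median. The filter at the 75th percentile kept 29 of them in ES cells and 28 in differentiated cells.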
